A study of Mus musculus with 12 samples.

Results

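Array-based comparative genomic hybridization (aCGH) was used to measure the DNA copy number of mouse chromosome 14 in 12 liver tumors. The probes were those of the array, other than control spots, that the files place on chromosome 14 with a start above 15 Mb (genome build mm8), 1463 of 42235 probes on the autosomes and chromosome X. They were split at 18 Mb into a window of 33 probes from 15 to 18 Mb and the rest of the chromosome with 1430 probes. The chromosome and this split had been chosen after the log2 ratios of these tumors were known, so the level of the window and of the rest is described below without a test. Another 87 probes lie on chromosome 14 below 15 Mb and were used for comparison.

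All mice were of the Mdr2-KO/FVB strain (FVB.129P2-Abcb4tm1Bor), which lacks the canalicular phospholipid transporter Mdr2 (Abcb4) in every cell, so the comparison tissue carried the knockout as well. The post-PHx group held 6 tumors of mice aged 9 months (4 males, 2 females) that had undergone 70% partial hepatectomy (PHx) at 3 or 6 months of age. The spontaneous group held 6 tumors of mice without surgery, of which 4 were females (13 months old) and 2 were males (14 months old). Each array carried the DNA of 1 tumor in the red channel (Cy5) and of liver away from the tumor, taken from that mouse, in the green channel (Cy3), with no dye swap and no repeat array. M or F at the end of a tumor name gives the sex.

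In aCGH, a probe whose DNA is gained in the tumor gives a log2 ratio above 0 and a lost one a ratio below 0, and a change carried by part of the cells gives a smaller ratio than the same change carried by all of them. Fewer copies per cell and fewer cells with the change can therefore not be told apart here. The window holds genes of 3 nuclear receptors, which are transcription factors switched by small ligands: Rarb, a receptor of retinoic acid, Thrb, a receptor of thyroid hormone, and Nr1d2 (Rev-erb beta), a heme-binding repressor of the circadian clock. Thyroid hormone and retinoid receptors are known regulators of lipid metabolism in hepatocytes. The rest of chromosome 14 carries Rb1, the retinoblastoma cell cycle inhibitor, and genes of 2 microRNA groups, miR-15a with miR-16, known as suppressors of cell survival genes, and the miR-17 cluster, known as a driver of proliferation.

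A promoter of each of the 3 receptor genes is shown because these genes lie together in the gained window. RefSeq (GRCm38.p6) gave 13 promoters of 300 bases, from 250 before to 50 after a start site, for 9 of the 14 gene names of the window. Both strands were searched for AGGTCA, the core that many nuclear receptors recognize, and for GTTCACNNNNNGTTCAC, a direct repeat of the kind known as the retinoic acid response element of Rarb. AGGTCA was found in 16.3% of all 32851 promoters and in 4 of these 13, and the repeat in 2 of all promoters (0.00609%), 1 of them that of Rarb. The 4 promoters with AGGTCA belong to 3 of the 9 genes, Oxsm, Thrb and Nr1d2. The Rarb promoter and the other Thrb promoter, which is not shown, hold no AGGTCA. A match describes the letters only. The repeat was taken from what is known of Rarb, so its match there is no new result. Positions are those of GRCm38.p6, which differ from the mm8 positions of the files. Capitals mark the match.
Rarb, chr14:16575427-16575726, minus strand: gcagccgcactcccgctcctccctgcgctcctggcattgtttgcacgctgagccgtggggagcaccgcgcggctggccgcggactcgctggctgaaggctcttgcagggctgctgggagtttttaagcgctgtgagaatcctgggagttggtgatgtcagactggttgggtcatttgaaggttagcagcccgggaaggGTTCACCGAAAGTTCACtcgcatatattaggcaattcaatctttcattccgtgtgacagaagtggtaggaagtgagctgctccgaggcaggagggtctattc
Thrb, chr14:17660710-17661009, plus strand: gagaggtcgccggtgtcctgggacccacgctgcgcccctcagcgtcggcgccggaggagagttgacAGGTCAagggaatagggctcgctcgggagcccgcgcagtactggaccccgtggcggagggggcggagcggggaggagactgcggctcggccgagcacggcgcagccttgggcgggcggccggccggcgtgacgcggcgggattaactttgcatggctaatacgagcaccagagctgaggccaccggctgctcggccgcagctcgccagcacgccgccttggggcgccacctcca
Nr1d2, chr14:18239057-18239356, minus strand: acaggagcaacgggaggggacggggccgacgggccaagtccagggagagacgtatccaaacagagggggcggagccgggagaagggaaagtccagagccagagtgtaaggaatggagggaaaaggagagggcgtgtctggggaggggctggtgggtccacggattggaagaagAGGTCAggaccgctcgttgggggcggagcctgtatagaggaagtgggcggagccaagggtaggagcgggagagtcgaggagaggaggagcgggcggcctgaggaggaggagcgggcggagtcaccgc

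Of 51 mature microRNAs on chromosome 14, 8 that belong to the groups of miR-15a and miR-17 are shown. No probe is named for these 8, and they are shown because the probes around them were lowered in the spontaneous tumor Spon5F. Their sequences and positions are from RefSeq (GRCm38.p6), and capitals mark the seed (bases 2 to 8). The 8 sequences share 5 seeds: miR-15a-5p and miR-16-5p have the same one, as do miR-17-5p and miR-20a-5p, and miR-19a-3p and miR-19b-3p. No microRNA of the table lies among the genes of the window.
miR-15a-5p, chr14:61632075-61632096, minus strand: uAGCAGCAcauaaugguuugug
miR-16-5p, chr14:61631936-61631957, minus strand: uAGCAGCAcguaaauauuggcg
miR-17-5p, chr14:115043684-115043706, plus strand: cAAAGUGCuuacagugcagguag
miR-20a-5p, chr14:115044183-115044205, plus strand: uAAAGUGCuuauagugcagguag
miR-18a-5p, chr14:115043867-115043889, plus strand: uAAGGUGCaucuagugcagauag
miR-19a-3p, chr14:115044048-115044070, plus strand: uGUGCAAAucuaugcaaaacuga
miR-19b-3p, chr14:115044358-115044380, plus strand: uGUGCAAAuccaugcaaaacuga
miR-92a-3p, chr14:115044476-115044496, plus strand: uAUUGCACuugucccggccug

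Between 1419 and 1460 of the 1463 probes were measured on each array after outlier spots had been left out. The signal exceeded the background 7.07 to 25.9 times in the green and 3.80 to 11.9 times in the red channel (medians over probes), and the noise between neighbouring probes was 0.147 to 0.265 on the log2 scale. The arrays of Spon1M, Spon2M and Spon3F stood apart: 10, 15 and 45 of the probes above 15 Mb lay more than 1 log2 unit from the median of chromosome 14, against 1 to 7 on the other 9 arrays. The first 4 post-PHx tumors shared slide 1 and the first 4 spontaneous tumors slide 3, so both groups met only on slide 2, with PHx5M and PHx6F beside Spon5F and Spon6F.

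The window was gained in 5 of 6 post-PHx tumors and in 1 spontaneous tumor, if a mean at least 0.25 above the median of the rest is taken as a gain. The mean log2 ratio of the window was highest in PHx2F, at 0.72 ± 0.03 (SE over 31 probes), followed by 0.63 ± 0.04 in PHx4M, 0.54 ± 0.04 in PHx1M and 0.37 ± 0.03 in PHx3M. It was 0.26 ± 0.03 in PHx6F and −0.02 ± 0.03 in PHx5M. On a linear scale, the gained tumors PHx1M, PHx2F, PHx3M, PHx4M and PHx6F held 1.45, 1.65, 1.29, 1.55 and 1.20 times the DNA of the non-tumor liver.

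All probes of the window lay above 0 in PHx2F, PHx3M and PHx4M, 31 of 32 in PHx1M and 30 of 33 in PHx6F. In the spontaneous group, the mean was 0.37 ± 0.02 in Spon1M, where all 33 probes lay above 0, and 0.12 ± 0.04 in Spon2M. It was −0.04 ± 0.02 in Spon3F, −0.12 ± 0.03 in Spon4F, −0.04 ± 0.03 in Spon6F and −0.56 ± 0.04 in Spon5F, where all 33 probes lay below 0. The groups overlapped, since PHx5M lay below Spon1M and Spon2M and Spon1M lay above PHx3M and PHx6F.

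Set against the rest of the chromosome of the same array, the window was higher by 0.74 in PHx2F, 0.65 in PHx4M and 0.54 in PHx1M. The excess was smaller, at 0.38, 0.34 and 0.28, in PHx3M, Spon1M and PHx6F. In the other 6 tumors the window lay slightly below the rest, by values from −0.11 to −0.04 (median −0.05). The mean of this difference was 0.43 ± 0.28 (SD, n = 6) in the post-PHx and 0.002 ± 0.17 (SD, n = 6) in the spontaneous tumors. The difference of these group means, 0.42, has no test because the window had been chosen from the same values.

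Within slide 2 alone, the window stood 0.28 above the rest in PHx6F, −0.04 from it in PHx5M and −0.09 and −0.04 from it in Spon5F and Spon6F, which gave a difference of group means of 0.19. All 4 tumors of slide 1, each of the post-PHx group, had the gain. Age and group cannot be told apart on any slide, and outside slide 2 slide and group cannot either. Without Spon1M, Spon2M and Spon3F, the difference of group means was 0.51. This leaves out Spon1M, the only spontaneous tumor with the gain (0.34), while Spon2M and Spon3F were at −0.05 and −0.04.

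In PHx1M, PHx3M and PHx4M, the gain filled the window and no more. Least-squares segmentation with at least 3 probes per segment placed both edges of the gain between the same probes in these 3 tumors: the left edge between 14243850 and 15029769 (a stretch of 786 kb without probes) and the right edge between 17925243 and 18503089 (578 kb). The segment thus spanned chr14:15029769-17925243, or 2.90 Mb, in these 3 tumors. Its mean was 0.54, 0.37 and 0.63, whereas the 84 to 87 probes measured below 15 Mb averaged −0.06, −0.04 and −0.06.

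The values beside the limits of 15 and 18 Mb changed within few probes. The last 3 probes before 15 Mb averaged 0.01 in PHx1M, −0.06 in PHx3M and −0.14 in PHx4M, and the first 3 of the window 0.76, 0.47 and 0.65. The last 3 probes of the window averaged 0.65, 0.26 and 0.70 in these tumors, and the first 3 after 18 Mb −0.05, 0.002 and −0.07. In RefSeq, the genes next to the left gap are Lrrc3b and Oxsm, with no protein-coding gene between them, and those next to the right gap are Ube2e2 and Nid2, with 4 predicted protein-coding genes between them.

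PHx2F shared the right edge but not the left. Its ratio was near 0 up to 11003637, 0.28 in a segment of 26 probes to 12910179 and 0.65 from 12969090 to 17925243. Within the last segment, the 17 probes below 15 Mb averaged 0.51 and the window 0.72. PHx6F had a gain of 0.28 over 120 probes from the first probe at 6628547 to 18503147, so 82 of its 86 probes below 15 Mb lay above 0, and its right edge lay 1 probe beyond that of the other 4 tumors. That probe had positive values in all tumors but Spon5F.

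The gain of Spon1M had other edges. It ran from the first probe to 31475809, with segment means of 0.50, 1.48, 0.41 and 0.60, and the chromosome averaged −0.03 beyond. The segment at 1.48 held 5 probes (chr14:13773527-14163865), just below the window, of which the files name 1 as Lrrc3b, a gene of a leucine-rich repeat protein, and 1 as AK147724. In the other tumors these 5 probes averaged from −0.43 in Spon5F to 0.51 in PHx2F. In PHx5M, Spon2M, Spon3F, Spon4F, Spon5F and Spon6F, the chromosome formed 1 segment.

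**Figure D1:**
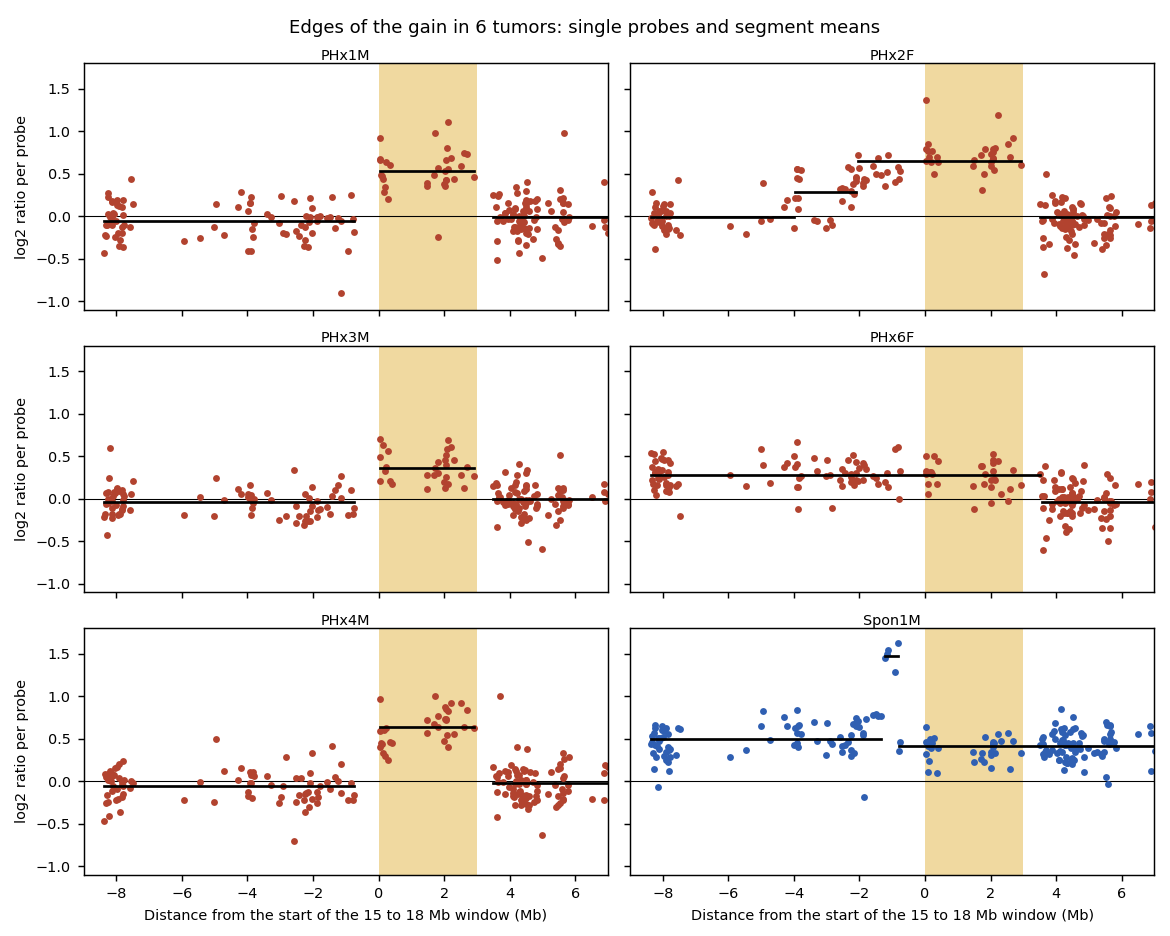
Log2 ratio of single probes (points) and segment means (black lines) against the distance in Mb from the start of the 15 to 18 Mb window (shaded) in the 6 tumors with a gain. In PHx1M, PHx3M and PHx4M the raised segment fills the window alone, in PHx2F and PHx6F it extends to the left, and in Spon1M it extends to both sides with 5 probes at a mean of 1.48.

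Regions were also called in each tumor by a score of neighbouring probes, weighted by their deposited errors, as the ADM-2 method of the array software does, with at least 2 probes and an error-weighted mean of at least 0.4 in each piece of a region, so the plain mean of a region can be slightly lower. An amplified region in the window was called in 4 tumors, PHx1M, PHx2F, PHx4M and Spon1M. Of 784 windows of 3 Mb across the autosomes and chromosome X, 0.765% had an amplified region in at least 4 tumors. The called regions spanned chr14:15029769-17925243 in PHx1M and PHx4M and chr14:12576065-17925243 in PHx2F, while PHx3M and PHx6F stayed under 0.4. With a limit of 0.25 they were called as well, which gave 6 tumors, and with a limit of 0.6 PHx4M alone. Spon1M had amplified regions at chr14:6628547-20772616 and chr14:20823335-31475809.

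The gain covered the 14 gene names of the window, which follow each other from Oxsm to S71494, with no probe between 15407185 (AK190447) and 16464550 (AK158826). More than 0.25 was reached by 12 of 13 measured names in PHx1M, where 8.36% of all autosomal names did so. The 3 receptor genes had means of 0.48 (Rarb, 3 probes), −0.24 (Thrb, 1 probe) and 0.42 (Nr1d2, 3 probes) in PHx1M. The probe of Thrb was the only one of the window below 0 there, and its neighbours on both sides, named AK158826 in the files, had 0.98 and 0.57.

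In PHx2F, all 14 names lay above 0.25 (background 7.24%), and the receptors were at 0.66 (Rarb), 0.50 (Thrb) and 0.66 (Nr1d2). In PHx4M, all 14 did (background 11.8%), with 0.44, 0.64 and 0.69 for the same genes. In PHx3M, 11 of 13 did (background 10.6%), with 0.38, 0.31 and 0.26. Rarb was at 0.32 and 0.35 in PHx6F and Spon1M, Thrb at 0.17 and 0.22, and Nr1d2 at 0.10 and 0.27. In Spon5F the 3 genes were at −0.50, −0.57 and −0.68. In PHx5M, Spon3F, Spon4F and Spon6F, Rarb lay between −0.07 and 0.02, Nr1d2 between −0.10 and 0.09 and Thrb between −0.38 (Spon6F) and 0.02. In Spon2M, Rarb was at 0.29, Thrb at −0.07 and Nr1d2 at −0.04.

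Of the genes of DNA and protein handling, Top2b, the beta isoform of DNA topoisomerase II, was at 0.32, 0.64, 0.33 and 0.45 in PHx1M, PHx2F, PHx3M and PHx4M, and at −0.12 in PHx5M. Oxsm, a mitochondrial fatty acid synthesis enzyme, had the highest values of the named genes in PHx2F, at 1.02, and was at 0.80, 0.46 and 0.68 in PHx1M, PHx3M and PHx4M. Ngly1, which removes sugar chains from misfolded glycoproteins, was at 0.48, 0.81 and 0.44 in PHx1M, PHx2F and PHx4M and was not measured in PHx3M. Ube2e1 and Ube2e2, both ubiquitin-conjugating enzymes, were at 0.68 and 0.67 in PHx1M and at 0.67 and 0.78 in PHx2F. In PHx3M they were at 0.38 and 0.20, and in PHx4M at 0.47 and 0.78.

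Rpl15, a protein of the large ribosomal subunit, was at 0.67, 0.69, 0.40 and 0.72 in PHx1M, PHx2F, PHx3M and PHx4M. Nkiras1, a Ras-like protein that binds inhibitors of NF-kappa-B, was at 0.43, 0.72, 0.39 and 0.79. In PHx6F, 8 of 14 names lay above 0.25 (background 4.91%), and in Spon1M 13 of 14 did (background 13.0%). In Spon2M, 3 of 14 did, where 21.0% of all names lay above 0.25. The other names of the window were AK190447, AK158826, AK085192 and S71494, with values of 0.18 to 1.11 in PHx1M, PHx2F, PHx3M and PHx4M where measured. The value of a gene rests on 1 to 5 probes, and the range over the names within a tumor was widest in PHx1M, from −0.24 (Thrb) to 1.11 (AK085192).

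**Figure D2:**
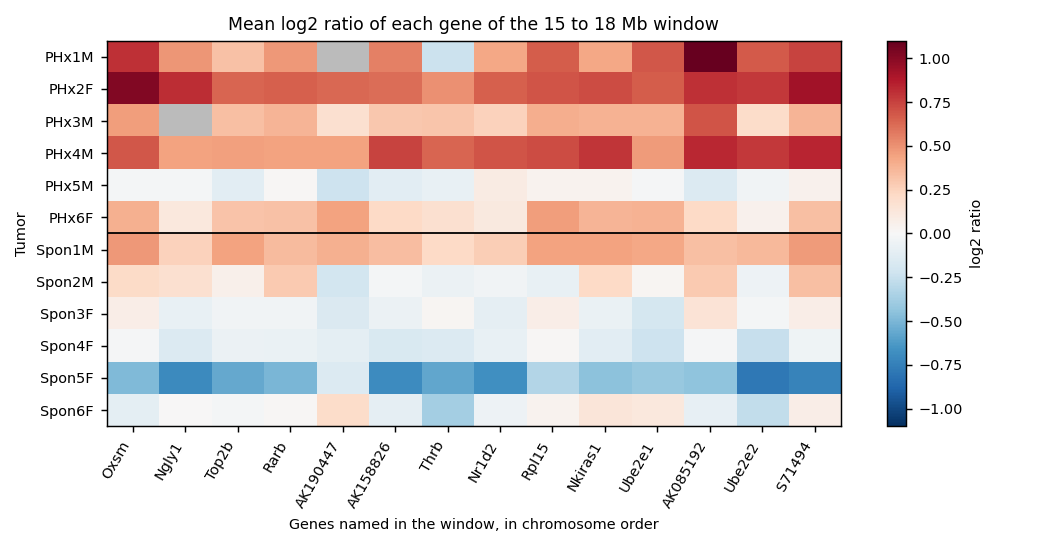
Mean log2 ratio (colour) of the 14 genes named in the window (x axis, in chromosome order) in each tumor (y axis, post-PHx above the line, spontaneous below). Grey marks a gene not measured. PHx1M, PHx2F, PHx3M, PHx4M, PHx6F and Spon1M are raised along the window, and Spon5F is lowered at all 14 genes.

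The rest of chromosome 14 was lost in Spon5F. Its median was −0.47 over 1421 probes, or 0.721 times the DNA of the non-tumor liver, and all 81 bins of 1 Mb with at least 3 probes lay below 0, from −0.68 to −0.25. This was the lowest median among the 19 autosomes of that tumor, followed by chromosome 12 at −0.31. The window (−0.56 ± 0.04) and the 87 probes below 15 Mb (−0.50 ± 0.03) were lowered with it, and segmentation found no edge along the chromosome.

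The median of the rest lay between −0.02 and 0.01 in all 6 post-PHx tumors. It was 0.03 in Spon1M, 0.17 in Spon2M, −0.002 in Spon3F, −0.01 in Spon4F and 0.001 in Spon6F. Spon5F thus lay alone below the other 11 tumors. In Spon2M, 1 of 80 bins lay below 0, but chromosome 14 held place 15 from the lowest of its 19 autosomes, whose other medians ran from −0.42 (chromosome 19) to 0.28 (chromosome 1). The group means of the rest were −0.01 ± 0.01 (SD, n = 6) for the post-PHx and −0.05 ± 0.22 (SD, n = 6) for the spontaneous tumors. This difference of 0.04 turned to −0.05 without Spon5F.

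Called as regions, 1540 of 1541 probes of Spon5F lay in a single deleted region, chr14:6663640-123875911. Of 228 pairs of a tumor and an autosome, 0.877% had over 50% of their probes in deleted regions, namely this one and chromosome 12 of the same tumor. Smaller deleted regions were called in Spon3F, 4 regions of 2 to 4 probes, so deleted regions on the rest were called in 2 tumors in all, while 78.9% of the autosomes had such a region in at least 2 tumors. In Spon2M an amplified region of 4 probes (chr14:117190975-117590577, mean 0.98) overlapped a deleted region of 3 probes in Spon3F (chr14:117549215-117590577, mean −1.17), where the files name Abcc4. Both regions hold probes of Abcc4 and AK045981 that are among the scattered probes given under Other observations. Relative to the chromosome median, these were at 1.46 and 1.12 in Spon2M and at −1.71 and −1.61 in Spon3F. Another deleted region of Spon3F (chr14:75266966-75274497) starts at such a probe.

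**Figure D3:**
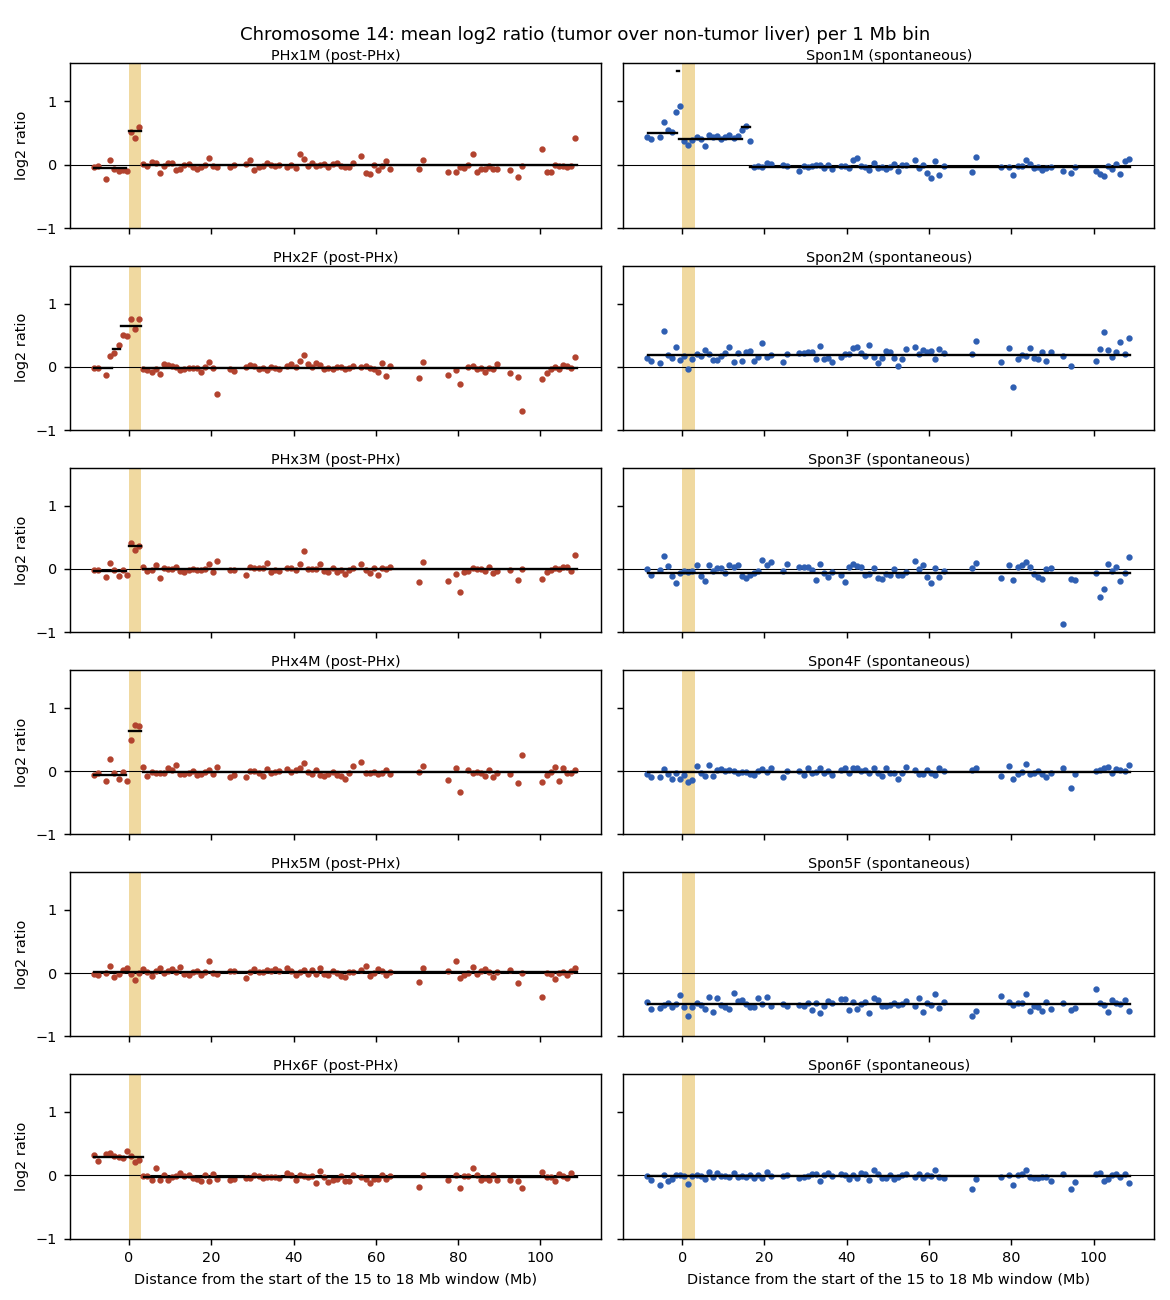
Mean log2 ratio per 1 Mb bin (points) and segment means (black lines) along chromosome 14, against the distance in Mb from the start of the 15 to 18 Mb window (shaded), for 6 post-PHx (left) and 6 spontaneous tumors (right). Spon5F lies below 0 along its whole length, Spon2M slightly above 0, and the gains end near the right side of the window in PHx1M, PHx2F, PHx3M, PHx4M and PHx6F.

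The loss of Spon5F reached nearly all named genes. Of 682 gene names on the rest, 676 had a value below 0 and 595 (87.2%) a value below −0.25. Of all autosomal names of that tumor, 14.9% lay below −0.25. The median over the 682 names was −0.47. Of 19 genes listed as tumor suppressors or cell death genes, the files named 13, and 12 of these lay below −0.25 (median −0.39). Rb1, the retinoblastoma inhibitor of the cell cycle, was at −0.97, against −0.27 to 0.41 in the other 11 tumors. Bap1, a deubiquitinase and tumor suppressor, was at −0.61, but its single probe was also at −0.44 in Spon3F. Lats2, a kinase of the Hippo pathway, was at −0.36, against −0.07 to 0.52. Tnfrsf10b, a death receptor, was at −0.39. Gata4, a transcription factor of liver and heart development, was at −0.16 and the exception of this list.

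Among 26 growth and signalling genes, 24 lay below −0.25 (92.3%, median −0.56), against 87.2% of all names of the rest. The glypicans Gpc5 and Gpc6, which bind growth factors at the cell surface, were at −0.80 and −0.59, against −0.29 to 0.22 and −0.21 to 0.12 in the other tumors. Fgf9, a fibroblast growth factor, was at −0.59, Klf5, a zinc finger factor of proliferating cells, at −0.36, and Bmp4, a bone morphogenetic protein, at −0.27. The single probe of Bmp4 was lower still in Spon1M and Spon3F, at −0.70 and −0.69, and was at 0.31 in Spon2M. Wnt5a, a ligand of the non-canonical Wnt pathway, had 0.09 in Spon5F, within the 0.01 to 0.42 of the other 11 tumors.

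Of 18 genes on the list of hepatocyte genes, which also holds genes that are not particular to hepatocytes, such as Mettl3, the files named 15. Of these, 12 lay below −0.25 (80.0%, median −0.55), against 87.2% of all names of the rest. Mat1a, the methionine adenosyltransferase of the adult liver, was at −0.58, against −0.10 to 0.33 in the other tumors. Cpb2, a carboxypeptidase that slows the lysis of clots, was at −0.55, Clu, the chaperone clusterin, at −0.57, Rnase4, a secreted ribonuclease, at −0.47, and Mettl3, the RNA methyltransferase, at −0.76. The inter-alpha-trypsin inhibitor genes Itih1 and Itih3 were at −0.56 and −0.17. Both lie in the stretch gained in Spon1M, where they were at 0.62 and 0.82, and where Stab1, a scavenger receptor of sinusoidal endothelium, was at 0.63. In Spon1M, 143 of 679 names of the rest lay above 0.25 (21.1%, against 13.0% of all autosomal names).

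Of 7 listed T cell receptor region and cytotoxic genes, the files named 5. In Spon5F, 4 of these lay below −0.25 (80.0%, median −0.35), against 87.2% of all names of the rest. The granzymes Gzmb and Gzmc were at −0.35 and −0.93, and Dad1, a subunit of the oligosaccharyltransferase next to the T cell receptor alpha locus, at −0.18. In the other 11 tumors, the median of any of these 4 lists ran from −0.17 to 0.24, and that of all names of the rest from −0.03 to 0.17. The genes named here carry 1 to 4 probes each. Tnfsf11, the RANK ligand, and Abcc4, a drug and bile acid exporter, had −0.65 and −0.66 in Spon5F, but also −0.89 and −0.96 in Spon3F and 0.75 and 0.98 in Spon2M.

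No probe is named for the microRNA genes, which were placed by RefSeq genes on either side that the files name as well. miR-15a and miR-16 lie between Trim13, a ubiquitin ligase, and Dleu7, which were at −1.26 (1 probe) and −0.46 (2 probes) in Spon5F. The other 11 tumors had −0.58 to 0.84 for Trim13 and −0.33 to 0.13 for Dleu7. All 6 probes from Trim13 to Dleu7, of which 3 are named AK165901, lay between −1.26 and −0.43 in Spon5F. The miR-17 cluster lies between Slitrk5, a membrane protein of neurons, at −0.41 (1 probe) in Spon5F against 0.01 to 0.34 in the other tumors, and Gpc5. All 8 probes from Slitrk5 to Gpc5, AK083524 and AK053349 among them, lay between −1.07 and −0.41 in Spon5F.

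Both channels were examined to see which DNA of a pair had changed. The processed signal of each probe was centred on the autosomal median of its array and channel and on the median of that probe over the 12 arrays. In the window, the green (non-tumor) channel stayed between −0.08 and 0.06 on all arrays. The red (tumor) channel was at 0.51 in PHx2F, 0.43 in PHx4M and 0.35 in PHx1M. It was at 0.21, 0.10 and 0.07 in Spon1M, PHx6F and PHx3M. It was between −0.24 and −0.05 in PHx5M, Spon2M, Spon3F, Spon4F and Spon6F, and −0.69 in Spon5F. The centre of this scale lies between gained and other tumors, since 6 of 12 arrays had the gain. On the rest, the green channel ranged from −0.06 to 0.01, and the red channel was at −0.47 in Spon5F and between −0.07 and 0.17 on the other arrays. In PHx3M, the red (0.07 ± 0.06, SE) and green (−0.08 ± 0.05) values of the window lay equally far from 0.

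**Figure D4:**
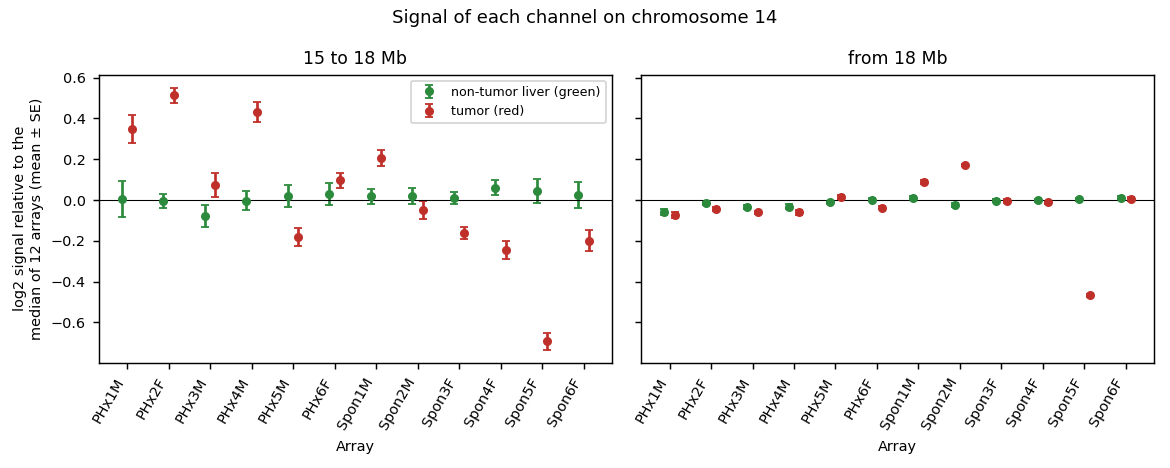
Log2 signal of the non-tumor liver channel (green) and the tumor channel (red) on each array (x axis), relative to the median of the 12 arrays, as mean ± SE over probes of the window (left) and of the rest (right). The green values lie near 0 on all arrays, and the red values are raised in the window in PHx1M, PHx2F and PHx4M and lowered in both stretches in Spon5F.

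Whether any stretch of 1 Mb differed between post-PHx and spontaneous tumors was tested with limma across 2137 bins of the autosomes and chromosome X. No bin passed a Benjamini-Hochberg adjusted p of 0.05 (0.0% called), and none of the 81 bins above 15 Mb of chromosome 14 did. The methods' t-test on the same values also called no bin after adjustment. At an unadjusted p under 0.05, limma gave 120 bins in all and 3 on chromosome 14. These were the 3 bins of the window, all higher in the post-PHx tumors, as were 4.87% of all bins at this level. They hold the values from which the window had been chosen. The bin at 17 Mb had the smallest p, with 0.44 ± 0.29 (SD) in the post-PHx and −0.04 ± 0.31 in the spontaneous tumors, a difference of 0.48 ± 0.15 (SE, limma, adjusted p = 0.793). No bin of chromosome 14 that was lower in the post-PHx tumors had an unadjusted p under 0.05. The lower bin with the smallest p was that at 28 Mb, with −0.02 ± 0.02 and 0.04 ± 0.30, a difference of −0.06 ± 0.11 (SE, limma, adjusted p = 0.933).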

How the data were processed

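DNA of 12 tumors (red channel) and of matched non-tumor liver (green channel) had been hybridized to 12 Agilent arrays of 43020 spots on 3 slides, and the authors extracted the signals with Feature Extraction 10.5.1.1, with probe positions on mm8. The deposited log ratio is the log10 of red over green after the authors' background subtraction and dye normalization, and it was multiplied to the log2 scale. The deposited intensity values (processed, mean and background signals, in linear units of brightness) served for the channels and for normexp. Control spots and outlier spots were left out, and the median over autosomal probes was then subtracted on every array. Signals over background and the number of arrays limit the precision.

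The members and the gene lists were chosen with earlier results of these data known. Named genes were all those of the window and, beyond it, genes of the 4 lists. A single gene of these lists is counted but not reported here by name. A gene value is the mean of its probes. For bins, the rule was the 1 with the smallest p in each direction where none passed. Regions were called with an interval score (threshold 6, weights from the deposited error). The 1 Mb bins with at least 3 probes were tested with limma 3.58.1 in R 4.3.3, adjusted by the Benjamini-Hochberg method over all bins. Segmentation (at least 3 probes, penalty multiple 4) and the settings without scattered probes or without 3 arrays were added after the data had been seen. Both the bin test and the region calling were tested on simulated data. Python 3.11.15, numpy 2.4.6 and pandas 2.3.3 were used. Each tumor came from the label of its array, with 6 arrays per group. The tumors of a group are separate samples by their labels, and no repeat array measures the technical spread. Alternatives covered background correction, centring, filters, window limits, bins, slide, sex, tumor number and calling limits.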

Additional observations from a re-analysis of the deposited data

Results flagged for a closer look

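In a group of 6 tumors, a highest or lowest value was listed when its gap to the nearest tumor, as a share of the range of the group, exceeded the critical value of Dixon's test. The check covered part of the listed genes and not the window or the medians, which had chosen the region. These genes lie on the rest, so their probes also entered its median. Of 50 groups of values checked, 15 met this. Chance passes the critical value in about 1 in 20 independent groups, but genes on 1 chromosome of the same tumors are not independent. The count was therefore not tested against chance. Among the spontaneous tumors, Spon5F stood below the others in Gata4 (−0.16), Gpc6 (−0.59), Klf5 (−0.36), Mat1a (−0.58), Rnase4 (−0.47) and Mettl3 (−0.76). These genes share the chromosome-wide loss of that tumor, on which the region was chosen, and are a description. Spon1M stood above the others in Itih3 (0.82), which lies in its gained stretch.

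Among the post-PHx tumors, PHx6F was lowest in Rb1 (−0.27), Cpb2 (−0.0703) and Clu (−0.16). PHx1M was highest in Lats2 (0.41) and lowest in Gpc6 (−0.21). Bap1 was highest in PHx4M (0.36), Rnase4 was highest in PHx5M (0.19) and Tnfsf11 was lowest in PHx2F (−0.77), where the other 5 tumors lay between −0.05 and −0.02. For Tnfsf11, 1 of 2 probes had a low signal in both channels in PHx2F. Relative to the median of the 12 arrays, this probe was at −2.46 (green) and −3.09 (red). These values rest on 1 to 4 probes per gene.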

How the results depend on the processing

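The window had been chosen from the log2 ratios of these tumors, so how its difference held across settings is a description. Centring shifts the window and the rest alike and cannot change that difference. The difference of group means of the window against the rest was 0.42 and stayed above 0 in every setting run. It was 0.11 with a window of 15 to 20 Mb, which takes in probes beyond the right edge, and 0.19 with slide as a block and within slide 2. It ranged from 0.36 to 0.52 with each tumor left out in turn. With such a wider window, single tumors moved to 0.18 (PHx1M), 0.22 (PHx2F), 0.13 (PHx3M) and 0.21 (PHx4M). The difference for the rest, 0.04, was 0.23 with slide as a block and within slide 2 and ranged from −0.05 to 0.08 with each tumor left out. For both differences, slide as a block and slide 2 alone give the same estimate, since only slide 2 held both groups. There, the rest was at −0.47 in Spon5F, against 0.01 in PHx5M, −0.02 in PHx6F and 0.001 in Spon6F. With tumor number as a replicate block the values were 0.42 for the window and 0.04 for the rest, with no bin called. Same-numbered tumors correlated at −0.13 to 0.39 and 1 of 6 correlated best with its own number, so they share a number only. No bin was called by limma in any setting or by the t-test, with 32 to 259 of the 1 Mb bins at an unadjusted p under 0.05. Amplified regions in the window were called in 1 tumor with a limit of 0.6 and in 3 with normexp, which lost PHx1M. Deleted regions on the rest were called in 1 tumor with a score of 8 (Spon5F), with a limit of 0.6 (Spon3F) and with at least 5 probes (Spon5F), and in 3 tumors, with Spon1M added, with normexp, equal probe weights and a score of 5. The cause was not tested where it is not given.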

Other observations

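Scattered single probes moved on the arrays of slide 3. Above 15 Mb, 13 probes lay more than 1 log2 unit above the chromosome median in Spon2M and as far below it in Spon3F, and 10 of them lay more than 1 log2 unit below it in Spon1M. Across the genome there were 396 probes with this pattern in Spon2M and Spon3F. Relative to the median of the 12 arrays, the signal at the 13 probes was low in the red channel of Spon1M (median −1.21) and Spon3F (−2.03), in the green channel of Spon2M (−1.44), and in both channels of Spon4F (green −1.67, red −1.18). On slides 1 and 2, the channel medians at these probes ran from −0.13 to 0.24. The probe of Tnfsf11 was an exception on slide 1, with green values from −3.21 to −1.32. Tnfsf11 and Abcc4 had opposite values in Spon2M and Spon3F, as given with the gene lists. Their part in the results of the window was not tested beyond leaving the scattered probes out, which left 4 tumors with an amplified and 2 with a deleted region.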
